A study of Arabidopsis thaliana with 24 samples.

Results

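Whole siliques of Arabidopsis thaliana, accession Col-0, were compared at 2 consecutive stages of seed development: 3 arrays labelled siliques with seeds at stage 4 (replicates D, E and F) against 3 arrays labelled siliques with seeds at stage 3 (replicates A, B and C). These 6 arrays were chosen by their tissue labels from the 24 of the series, which holds 8 groups of 3 arrays: whole siliques from stage 3 to 5, and isolated seeds from stage 6 to 10. Total RNA was labelled with biotin and read on the Affymetrix ATH1 array, on which each transcript is measured by a probe set, a group of short probes. No genotype other than Col-0 and no treatment is labelled, and growth conditions (long days, on soil) are given for stage 3 only. The labels do not tell whether replicates were separate plants, and p-values therefore cover only the spread among these RNA samples, possibly a technical one. The replicate letters of the stages do not overlap, so any batch tied to them cannot be told apart from the stage. In these whole siliques, fewer cells of a type and less RNA per cell cannot be told apart either.

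A silique is the fruit of Arabidopsis, a wall of 2 valves around rows of ovules that become seeds after pollen tubes have brought the sperm cells. In the young fruit the wall and the seed coats grow mainly by cell expansion, for which expansins, xyloglucan-modifying enzymes, pectin enzymes and cellulases loosen or remodel the cell wall. Seed filling follows, in which endosperm and embryo take up sugars delivered through the seed coat and lay down storage proteins and oil, the latter in oil bodies coated with oleosins.

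Signals are linear values scaled by the authors to a common mean per array. Each change below is a difference of mean log2(signal + 7), stage 4 minus stage 3, with its SE, n = 3 arrays per group and an adjusted p from limma over the 16967 probe sets tested. A probe set was called higher or lower where the adjusted p was under 0.05 and the change at least 2-fold, which is 1 on this scale. Signals of different probe sets are not comparable as amounts. The 6 arrays had 40th percentiles of 23.6 to 25.8, and signals near or under that are close to the background, so that the changes of genes starting or ending there depend on the offset of 7. Log2 values correlated at 0.987 to 0.991 between arrays of 1 stage and at 0.802 to 0.805 between stages, computed over probe sets, which are not independent of one another. The ratio of 3′ to 5′ signal of the actin control, a measure of RNA and labelling quality, was 4.09 ± 0.288 (SD, n = 3) at stage 3 and 2.67 ± 0.228 at stage 4. That of ubiquitin was 1.86 ± 0.108 and 1.27 ± 0.0385, and that of GAPDH 1.38 ± 0.0463 and 1.45 ± 0.0105. The part of RNA quality in the results was not tested.

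Of the probe sets tested, 1594 (9.39%) were higher at stage 4 and 1603 (9.45%) lower, 3197 (18.8%) in all. Counts of list members below are to be read against these shares. Changes of at least 16-fold were found for 91 higher and 32 lower probe sets. The median over all tested was -0.02, on arrays that the authors had scaled to a common mean, which tends to hold the median near 0. All 3197 probe sets with a change of at least 2-fold also passed the adjusted p, so the fold threshold alone set which were called. For 11325 probe sets (66.7%) the arrays of the stages did not overlap, and the same held for all but 3 of those called. The adjusted p alone was passed by 9374 (55.2%). Between stages 4 and 5, the next step in whole siliques, 565 probe sets were called. Both counts use the stage 4 arrays, and their difference was not tested. The replicate letters change between stages 3 and 4 and stay the same (D, E and F) between stages 4 and 5. A batch tied to them would therefore enter only the count of the first step. Of the higher probe sets 701 (44.0%) had a stage 3 mean under 25, and of the lower ones 738 (46.0%) a stage 4 mean under 25. For these genes the size of the change says mainly how bright the other stage was.

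**Figure D1:**
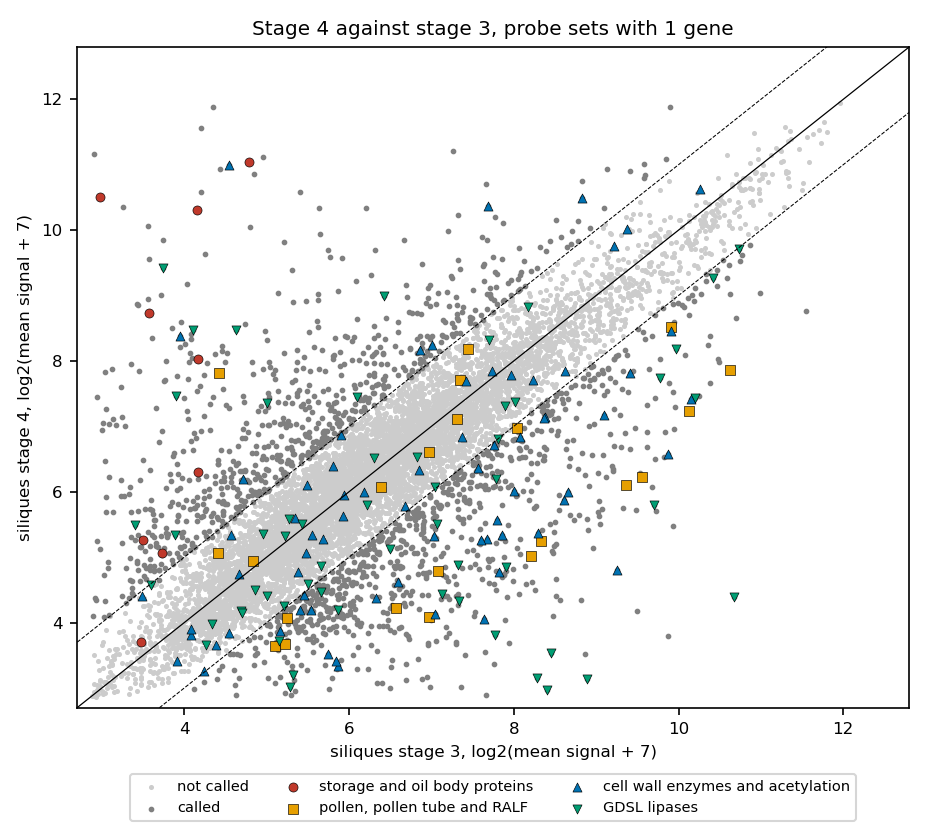
Mean signal of each tested probe set with 1 annotated gene at stage 3 (x axis) and stage 4 (y axis), both as log2(mean signal + 7), with the solid line at equal signals and the dashed lines at 2-fold. Most storage and oil body genes lie far above the lines at low stage 3 signals. AT1G03890 and AT2G25890 lie only a little above them and AT2G18540 within them. Most pollen, RALF and cell wall genes lie below the diagonal.

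Genes for seed reserves rose between these stages. Of the 5 tested storage protein genes 4 rose and none fell, with a median change of 3.88, against -0.02 over all probe sets. AT4G36700, which encodes a cupin of the vicilin type, had signals of 1.32, 0.492 and 0.78 at stage 3 and 1642, 1360.5 and 1344 at stage 4. All 3 stage 4 arrays were far above the stage 3 arrays, and the change was 7.53 ± 0.08 (SE, adjusted p = 9.32e-29). The vicilin-like gene AT2G28490 read 7.43, 4.59 and 2.75 at stage 3 and 332, 446 and 471 at stage 4, a change of 5.15 ± 0.12 (SE, adjusted p = 1.43e-21). PAP85, a vicilin-like storage protein, read 11.7, 13.3 and 7.86 at stage 3 and 263, 256 and 246 at stage 4 and changed by 3.88 ± 0.10. For these genes the stage 3 signals lay in the background range of the arrays. No stage 4 array overlapped them, as for nearly all called probe sets. AT1G03890, a gene of the cruciferin type, moved less, from 3.57, 7.32 and 1.87 to 33.7, 31.7 and 29.2. Its change of 1.80 ± 0.11 shrank to 0.89, under the 2-fold threshold, with an offset of 28. The 5th gene, the cupin AT2G18540, had means of 4.15 and 6.05 and was not called. It was tested only because of its signals in later groups.

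In the later groups these genes were higher still. The mean of AT4G36700 was 1449 ± 168 (SD) at stage 4, 2269.6 ± 156 at stage 5 and 4349 ± 116 in seeds of stage 10. PAP85 read 255 ± 8.28 at stage 4, 1731 ± 60.1 at stage 5 and 11060.4 ± 1031 in seeds stage 10. AT1G03890 was at 854 ± 32.3 at stage 5 and 8244 ± 692 in seeds stage 10.

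All 4 tested oil body genes, of 10 in the list, rose, with a median change of 4.20. OLEO3, an oleosin, read 23.6, 19.6 and 18.2 at stage 3 and 2092, 2128 and 2112 at stage 4, a change of 6.27 ± 0.07 (SE, adjusted p = 2.81e-28). The oleosin gene AT3G01570 read 17.2, 2.69 and 12.5 at stage 3 and 1222, 1273 and 1305 at stage 4, with a change of 6.26 ± 0.19. The stage 4 arrays of both genes agree closely, and their stage 3 signals were at or below the background range. AT3G18570 changed by 2.14 ± 0.12, from a mean of 11 to 71.8. AT2G25890, also of the oleosin family, rose by 1.36 ± 0.13 from 6.27 to 26.3 and was no longer called with an offset of 28 (0.67). On the 6 arrays alone it would not have passed the filter on low signals, so its place in the count rests on later groups. OLEO3 peaked early, at 4552 ± 178 in seeds stage 6, and stood at 1370.3 ± 80.8 in seeds stage 10, whereas AT3G01570 went on to 10174 ± 1076.

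Plastid fatty acid synthesis moved upward in a milder way. Of the 24 genes in this list 7 were tested: 3 rose, none fell and the median change was 0.90. All 7 were higher at an unadjusted p under 0.05. By the stricter adjusted p alone, 4753 of all 16967 probe sets were also higher. The acyl-ACP thioesterase gene FaTA, whose enzyme releases fatty acids from their carrier protein, read 38.1, 31.7 and 33.3 at stage 3 and 148, 181 and 177 at stage 4, a change of 2.08 ± 0.13 (SE, adjusted p = 9.90e-13). AT4G13050, another thioesterase gene, rose by 1.51 ± 0.24 and AT5G10160, a hydroxyacyl dehydratase gene, by 1.24 ± 0.10. The ketoacyl reductase gene AT1G24360 had a change of 0.90 ± 0.09 with groups that did not overlap (744, 732 and 725 at stage 3 and 1225, 1433 and 1472 at stage 4). It stayed under the 2-fold threshold except with quantile normalization, where its change was 1.16. No gene of fatty acid modification and triacylglycerol assembly could be analysed here.

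Among regulators of maturation, EEL, a bZIP factor that binds promoters of late embryo genes, read 4.35, 11.6 and 13.9 at stage 3 and 113, 104 and 90.4 at stage 4, a change of 2.73 ± 0.13 (SE, adjusted p = 3.15e-15), and its mean went on to 1739 ± 145 in seeds stage 8. BZIP53, a related factor that acts on storage protein genes, read 315, 336 and 307 at stage 3 and 367, 358 and 352 at stage 4 and was not called (adjusted p = 0.116). EEL and BZIP53 were the only 2 genes tested of the 11 in this list. Late embryogenesis abundant proteins, which protect cells during drying, were mixed at this step. Of 26 tested genes 7 rose and 3 fell, against 9.39% and 9.45% of all probe sets, with a median of 0.29. The largest rise was that of AT4G38410, a dehydrin gene, from 21.7, 20.5 and 13.6 to 65.8, 76.6 and 76.2. LEA (AT2G21490), another dehydrin gene, reached only 23.1 at stage 4, against 8131 ± 769 in seeds stage 10, and its change of 1.50 ± 0.09 was 0.69 with an offset of 28. The count of 7 became 11 with an offset of 1, 2 with an offset of 28, and 2 when the filter on low signals was set on the 6 arrays alone. AT5G38760 and AT5G27980, by contrast, fell from means of 277 and 178 to 17 and 10.8. The 3rd to fall, AT3G02480, dropped from 49.4 ± 4.05 to 18.5 ± 1.98, with 213 ± 17 at stage 5 and 5129 ± 458 in seeds of stage 10.

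Genes of the list for sugar and amino acid transport were split. SWEET proteins let sugars pass across membranes, and SWEET11 and SWEET15 (listed as SAG29) are known to feed the embryo from the seed coat and endosperm. SWEET11 read 157, 158 and 144 at stage 3 and 1052, 1256 and 1270.4 at stage 4, a change of 2.90 ± 0.07 (SE, adjusted p = 1.12e-21). SAG29 read 55.6, 34.1 and 37 at stage 3 and 513, 468 and 463 at stage 4, a change of 3.33 ± 0.10 (SE, adjusted p = 5.11e-19). Both remained high afterwards, at 1663 ± 83.7 and 1425 ± 68.6 in seeds stage 6. Among the 14 tested members of this list these were the 2 that rose, and 4 fell, against 9.39% higher and 9.45% lower over all probe sets. The 4 were SWEET14 with a change of -2.10 ± 0.33, SWEET4 with -1.65 ± 0.14, SWEET2 with -1.62 ± 0.14 and SWEET8 with -1.10 ± 0.13. The last change was under 2-fold with an offset of 28 (-0.87). AtVEX1, which encodes SWEET5 and stands in the pollen list because of its known expression in the vegetative cell of pollen, rose from 19.6, 10.7 and 12.9 to 213, 214 and 228 (a change of 3.42 ± 0.12, adjusted p = 1.00e-17).

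Genes of the lipid transfer protein family, small secreted proteins that bind lipids, supplied 3 of the 15 largest rises. The genes AT5G38170, AT5G38160 and AT5G38180 changed by 7.54 ± 0.07, 7.38 ± 0.09 and 6.55 ± 0.27. AT5G38170 read 14.3, 13.5 and 12.3 at stage 3 and 3639.8, 3560.2 and 4132 at stage 4 and AT5G38160 15.4, 8.9 and 10.0 at stage 3 and 3087, 2919.8 and 3048 at stage 4. These 3 genes are close relatives, and their probes may also read one another's transcripts. AT1G62510 read 4.02, 0.943 and 6.29 at stage 3 and 464, 481 and 436 at stage 4, a change of 5.47 ± 0.11 (SE, adjusted p = 9.59e-23), and AT1G62500, from the same family, went from a mean of 32.6 to 661. In later samples these differed: AT1G62510 read 689.5 ± 55.6 at stage 5, 34.9 ± 4.24 in isolated seeds of stage 6 and 3957 ± 114 in those of stage 10. Over the family, 8 of 29 tested genes rose and 11 fell, against 9.39% and 9.45% of all probe sets, with a median of -0.40. With an offset of 28 the number that fell was 7.

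The largest rise of all named genes was that of AT1G62070, a gene without a symbol in the files, which read 0.327, 0.426 and 0.774 at stage 3 and 2318, 2175 and 2343 at stage 4, a change of 8.25 ± 0.09 (SE, adjusted p = 7.17e-29). AT4G15390, which encodes an acyltransferase of the BAHD family, read 5.79, 0.546 and 1.23 at stage 3 and 1257, 1293 and 1368 at stage 4, with a change of 7.15 ± 0.16. AT5G59845 of the GASA family, small cysteine-rich peptides regulated by gibberellin, read 24, 19.4 and 21.5 at stage 3 and 1944, 1735 and 1853 at stage 4 and changed by 6.02 ± 0.06. The 15 largest rises were picked among called genes whose groups do not overlap, so the lack of overlap here follows from the selection. The 15 also hold AT1G04660 (6.60 ± 0.18), AT2G34700 (6.39 ± 0.07), AT1G47540 (6.12 ± 0.12) and AT3G63040 (5.99 ± 0.09), whose stage 3 means lay between 4.88 and 14.5.

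Of the seed coat lists, 2 of 5 tested mucilage genes rose and none of 4 flavonoid genes was called, and the lists were not compared by a test. With 9.39% of all probe sets higher and 18.8% called, no call among 4 genes is near that share. A pair of pectin methylesterase genes outside these lists also rose. ATPMEPCRD read 15.6, 17.2 and 16.1 at stage 3 and 1970.4, 2037 and 2129 at stage 4, a change of 6.46 ± 0.30 (SE, adjusted p = 2.36e-15). AT1G23200, known to act in mucilage and the embryo, read 29.5, 16.8 and 25.9 at stage 3 and 1982, 2128 and 2509 at stage 4 and changed by 6.17 ± 0.12. None of the mucilage list fell (median 0.67). Of the 2 that rose one was AT3G50990, the peroxidase PRX36 of mucilage secretory cells, which read 4.63, 1.31 and 1.1 at stage 3 and 177, 182 and 204 at stage 4, with a change of 4.40 ± 0.25 (SE, adjusted p = 9.80e-14). The other was ARA12, the subtilase SBT1.7 needed for mucilage release, which went from 743, 775 and 750.3 to 2067, 2082 and 2035 (1.44 ± 0.07). AT5G15740, which encodes the rhamnosyltransferase RRT1 of pectin synthesis, was among the bright genes with the largest rises (95.4, 95.3 and 93.7 at stage 3 and 944, 873 and 915 at stage 4). The summed signal of the 5 mucilage probe sets was 1109 to 1195 at stage 3 and 2722 to 2789.6 at stage 4, and that of the 4 flavonoid probe sets 3443 to 3572 and 3374 to 3743. BAN, the anthocyanidin reductase of the inner seed coat, read 1795, 1727 and 1810.3 at stage 3 and 1771, 1754 and 1799 at stage 4, a difference of -0.00 ± 0.15 (adjusted p = 0.993). DFR, an earlier enzyme of that pathway, had a difference of 0.25 ± 0.09, which passed the adjusted p of limma (0.0222) but not the fold threshold, as did UGT80B1 (0.0248). At an unadjusted p under 0.05 limma gave 2 higher and 1 lower, where 55.2% of all probe sets passed even the adjusted p.

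Several genes of specialised metabolism rose, and so did some bright genes of other functions. AT2G25450, which encodes the dioxygenase GSL-OH that hydroxylates an aliphatic glucosinolate, read 135, 151 and 155 at stage 3 and 2364, 2218 and 2499 at stage 4, a change of 3.94 ± 0.08 (SE, adjusted p = 2.54e-23). After this value was seen, 7 tested genes of aliphatic glucosinolate synthesis were looked up: 4 rose and none fell, namely AT2G25450, the side chain enzyme AOP3 (4.73 ± 0.15), the aminotransferase BCAT4 (4.27 ± 0.12) and the glutathione transferase GSTU20 (1.85 ± 0.09). A list picked in this way is a description of these genes only. JMT, the jasmonate methyltransferase, read 62.1, 45.7 and 51.4 at stage 3 and 746, 757 and 770.4 at stage 4, with a change of 3.68 ± 0.22. AT1G73600, a gene for a phosphoethanolamine methyltransferase of choline synthesis, read 66, 69.3 and 64.7 at stage 3 and 1280.2, 1316 and 1271 at stage 4, with a change of 4.14 ± 0.10. Both of the latter were low in late seeds: JMT was at 13.2 ± 1.67 and AT1G73600 at 10.9 ± 1.56 in seeds stage 10. AT3G25260, a gene of the NPF family of nitrate and peptide transporters, read 53.5, 48.1 and 51.8 at stage 3 and 509.7, 548 and 529 at stage 4, a change of 3.20 ± 0.06 (SE, adjusted p = 6.95e-24). CPUORF47, named for a conserved upstream reading frame, read 55.9, 64.1 and 62.7 at stage 3 and 549, 628 and 599 at stage 4, with a change of 3.14 ± 0.10. UDP-glycosyltransferases, which attach sugars to small molecules, leaned upward, with 10 of 34 higher, 1 lower and a median of 0.60. Over all probe sets 9.39% were higher and 9.45% lower. UGT84B1, which can glucosylate auxin, rose by 3.24 ± 0.26, UGT84A3 by 2.45 ± 0.14 and UGT76E2 by 2.45 ± 0.13. With an offset of 28, 6 of the 34 were higher. The 1 lower gene, UGT84A1 (-1.08 ± 0.21), was not called without stage 3 replicate B (-0.97) or without stage 4 replicate D (-0.98).

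Of the 24 genes in the secondary wall list 2 were tested, and both rose. Of the silique wall and dehiscence list 2 of 4 rose, against 9.39% of all probe sets. IRX15, of xylan synthesis in secondary walls, read 9.34, 9.99 and 9.57 at stage 3 and 243, 245 and 254 at stage 4, a change of 3.93 ± 0.23 (SE, adjusted p = 2.85e-13), and GUT2 (IRX10), a xylan synthase component, read 54, 46.9 and 48.3 at stage 3 and 333, 306 and 324 at stage 4, with a change of 2.53 ± 0.10. Both were lower in seeds stage 6 than in siliques stage 5. ADPG1, a polygalacturonase of the dehiscence zone where the ripe fruit opens, rose from 18.6, 15.8 and 23.2 to 63.9, 70.9 and 64.8 (1.50 ± 0.17). SPT, a transcription factor of carpel margins, rose by 1.13 ± 0.11, which was 0.84 with an offset of 28. ALC, a factor of the dehiscence zone, read 326, 297 and 348 at stage 3 and 222, 214 and 202 at stage 4 and YAB3, a valve factor, 28.8, 25.5 and 34.3 at stage 3 and 42.8, 54.3 and 48.7 at stage 4, and neither was called. The difference of ALC was -0.59, with an adjusted p of 1.61e-05 in limma, short of 2-fold. The summed signal of the 4 genes of this list was 375 to 443 at stage 3 and 403 to 429 at stage 4. In seeds stage 6, without the fruit wall, ADPG1 and ALC were lower than in siliques stage 5 (-2.45 ± 0.17 and -1.95 ± 0.10). SPT and YAB3 had higher means there, by under 2-fold. SPT read 172 ± 7.26 against 125 ± 7.77, and YAB3 112 ± 1.17 against 59.3 ± 10.4. Whether the rise of SPT at stage 4 lay in the fruit wall or the seeds was not tested. AT3G62550, which encodes a small universal stress protein-like product, read 74.6, 72.8 and 69.9 at stage 3 and 834, 785 and 839 at stage 4, and its mean fell from 806 ± 25.9 in siliques stage 5 to 15.6 ± 4.66 in seeds stage 6.

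Most tested pollen genes fell. The pollen and pollen tube list names 46 genes, of which 13 were tested. Of these 8 fell and 1 rose, against 9.45% and 9.39% of all probe sets, with a median of -1.50. ANX2 and AT4G39110 had means of at most 11.6 and 20.6 outside stage 3 and passed the filter on low signals through their stage 3 arrays. Genes tested in this way could hardly come out other than lower, so the count is a description and no test. AT5G48140, a pollen polygalacturonase gene, read 733, 749 and 751 at stage 3 and 76.3, 58.7 and 69.5 at stage 4, a change of -3.33 ± 0.21 (SE, adjusted p = 8.11e-13). AT3G07820, another polygalacturonase of pollen, read 1077, 1145 and 1111 at stage 3 and 134, 152 and 146 at stage 4, with a change of -2.89 ± 0.17. AT59, a pollen pectate lyase, read 264, 302 and 299.6 at stage 3 and 25, 23.7 and 27.1 at stage 4, with a change of -3.19 ± 0.34. No array of stage 4 overlapped stage 3 for these genes, as for nearly all called probe sets. AT5G45880, of the Ole e 1 family of pollen allergens, read 1589.7, 1557 and 1569.6 at stage 3 and 224, 233 and 219 at stage 4, a change of -2.77 ± 0.10 (SE, adjusted p = 1.88e-17). ANX2, a receptor kinase that keeps the pollen tube intact, changed by -2.37 ± 0.26, and the pollen tube kinase genes AT4G39110 (BUPS1) and AT2G21480 (BUPS2) changed by -2.30 ± 0.24 and -1.20 ± 0.18. MGH3, the histone H3 of sperm cells, read 26.6, 31.9 and 23.4 at stage 3 and 1.54, 8.53 and 6.34 at stage 4, with a change of -1.50 ± 0.38. The falls of AT2G21480 and MGH3 were under 2-fold with an offset of 28 (-0.64 and -0.73), and that of AT2G21480 also, by a small margin, without stage 4 replicate D. Of the list's other genes, SETH1, SETH2, SETH3 and SETH5, needed for pollen germination or tube growth, had changes between -0.32 and 0.67 and were not called. The summed signal of the 16 pollen probe sets was 4228 to 4378 at stage 3 and 991 to 1100.4 at stage 4.

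Within the siliques these pollen genes then kept similar means. AT5G48140 had a mean of 68.2 ± 8.87 at stage 4 and 70.6 ± 2.59 at stage 5, AT3G07820 of 144 ± 9.42 and 146 ± 2.84, and AT5G45880 of 225 ± 7.08 and 232 ± 5.94. The means of stages 4 and 5 lay within the SD of the arrays or close to it. In seeds without siliques all 3 were lower again, at 15 ± 3.93, 22.4 ± 3.32 and 55.7 ± 8.37 at stage 6. AT5G45880 was then higher in later seeds, with 171 ± 21.9 at stage 8 and 195 ± 25.4 at stage 10.

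RALF peptides, secreted ligands of such receptor kinases, were also lower. Of 9 tested genes 6 fell and none rose, against 9.45% and 9.39% of all probe sets, with a median of -1.39. RALFL28 passed the filter on low signals through its stage 3 arrays alone and could hardly come out other than lower. RALFL26 read 622, 721 and 610.3 at stage 3 and 59.8, 68.7 and 55.8 at stage 4, a change of -3.27 ± 0.29 (SE, adjusted p = 5.03e-10), and its mean was 52.7 ± 8.56 at stage 5. RALFL25 read 338, 298 and 311 at stage 3 and 31.8, 30.1 and 31.5 at stage 4, with a change of -3.08 ± 0.19, and its mean was 31.6 ± 4.08 at stage 5. RALFL28 (-2.91 ± 0.31), RALFL18 (-1.57 ± 0.24), RALFL34 (-1.39 ± 0.07) and RALFL24 (-1.07 ± 0.17) made up the 6. Those of RALFL18 and RALFL24 were under 2-fold with an offset of 28, at -0.79 and -0.96.

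Small cysteine-rich proteins, a class with defence peptides and pollen tube attractants, went both ways. Of 11 tested genes 6 fell and 2 rose, against 9.45% and 9.39% of all probe sets, with a median of -1.20. AT3G24510, a defensin-like gene, read 709, 691 and 748 at stage 3 and 10.6, 10.3 and 12.2 at stage 4, a change of -5.33 ± 0.16 (SE, adjusted p = 2.25e-19). LCR24 read 337, 342 and 370.4 at stage 3 and 8.72, 8.23 and 13.4 at stage 4, with a change of -4.39 ± 0.21, and LCR72 542, 506 and 508 at stage 3 and 50.2, 50.4 and 52.8 at stage 4, with a change of -3.18 ± 0.19. The thionin gene THI2.1 fell from 2983 to 426 and further to 99.2 at stage 5. The 2 that rose were PDF2.1, a defensin, from 5.21, 1.02 and 5.44 to 207, 227 and 235 (4.43 ± 0.12), and LCR69, from a mean of 946 to 3757. PDF2.1 continued to 8291 ± 1033 in seeds stage 10. Floral organ identity genes had no probe set of their own in the annotation and were not analysed here. Of the 2 tested endosperm markers MPC fell from 98.9, 82.8 and 73.8 to 9.55, 12.3 and 14.7 (-2.26 ± 0.23) and AT4G36590 had a change of -0.82 ± 0.23, not called. Of the 2 tested guard cell markers AT1G22690 fell, with a change of -1.60 ± 0.29, under 2-fold with an offset of 28 (-0.96), and FMA had a change of -0.41 ± 0.20, not called. The summed signal of 4 endosperm probe sets was 117 to 145 at stage 3 and 31.3 to 45.4 at stage 4. That of the 2 guard cell probe sets was 69.3 to 92.5 and 29.3 to 34.3. The part of changing cell types in the results was not tested.

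**Figure D2:**
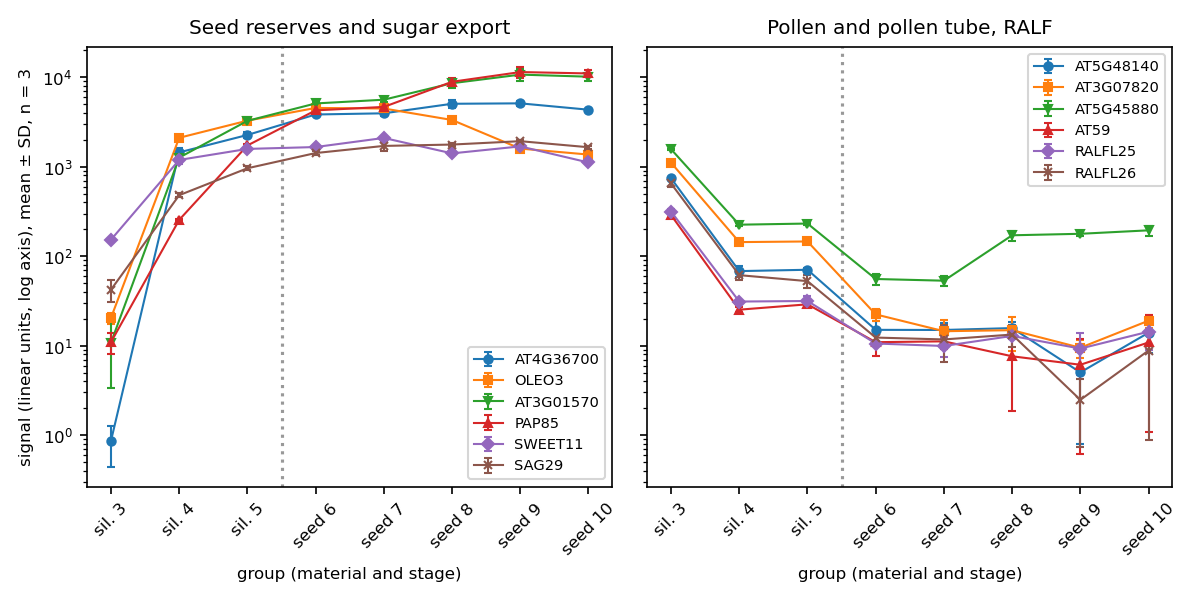
Mean signal ± SD (n = 3, log axis) of seed reserve and sugar export genes (left) and of pollen and RALF genes (right) in the 8 groups, with siliques left and seeds right of the dotted line. The left genes climb between stages 3 and 4 and stay high in seeds, and the right genes drop between stages 3 and 4, stay level to stage 5 and are lower again in seeds stage 6.

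GDSL lipases, esterases that include the cutin synthases of the cuticle, gave 5 of the 15 largest falls. AT5G33370, a gene related to cutin synthases, read 1622, 1623 and 1623 at stage 3 and 15.7, 5.33 and 20.8 at stage 4, a change of -6.36 ± 0.32 (SE, adjusted p = 8.85e-15). AT1G54020 read 456, 455 and 486 at stage 3 and 1.15, 3.67 and 0.417 at stage 4 and changed by -5.77 ± 0.26. RXF26 read 340.1, 317 and 341 at stage 3 and 0.607, 0.997 and 0.994 at stage 4, a change of -5.43 ± 0.28 (SE, adjusted p = 1.12e-14). For each of them the stage 3 arrays lay within a narrow band and the stage 4 arrays were at background. AT5G45950 (-5.13 ± 0.26) and AT4G28780 (-4.94 ± 0.27) complete the 5. Over the family, 24 of 56 tested genes fell and 10 rose, against 9.45% and 9.39% of all probe sets, with a median of -0.85. AT1G71250 was the member with the largest rise: it read 4.91, 5.94 and 8.12 at stage 3 and 642, 665 and 721 at stage 4, with a change of 5.68 ± 0.09, and stood at 630.3 ± 14.4 in seeds stage 6. The family was thus divided, with some members at background at stage 3 and others at stage 4.

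Other genes among the 15 largest falls were the subtilase gene AT4G21630, which read 880.2, 968 and 944 at stage 3 and 3.06, 8.57 and 8.78 at stage 4 (a change of -6.11 ± 0.20, adjusted p = 1.42e-18), and AT1G12570, which encodes an oxidoreductase related to HOTHEAD, a protein that keeps floral organs from fusing. The latter read 454, 472 and 447 at stage 3 and 3.49, 3.57 and 6.37 at stage 4, with a change of -5.35 ± 0.31. AT3G10720, a pectin methylesterase gene, read 184, 194 and 209.7 at stage 3 and 0.495, 0.318 and 0.388 at stage 4 and changed by -4.77 ± 0.25. JAL23, a jacalin-type lectin, changed by -4.41 ± 0.27, and iqd33, a calmodulin-binding protein of the IQD family, by -4.35 ± 0.19. AT1G11850 (-4.46 ± 0.19) and AT2G20870 (-4.48 ± 0.34) have no symbol in the files. AT2G20870 was not steady afterwards, with means of 13.3 ± 1.42 at stage 4 and 176 ± 2.75 at stage 5.

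Among genes with a mean signal of at least 50 in both stages, the largest falls were those of AT3G28830 (-3.61 ± 0.18), AT5G48140, AT3G26110 (-3.30 ± 0.18), the pectate lyase gene AT1G67750 (-3.30 ± 0.23), RALFL26, AT4G02250 (-3.24 ± 0.20), the leucine-rich repeat protein gene DRT100 (-3.21 ± 0.24) and LCR72. AT3G28830 read 786, 839 and 804 at stage 3 and 62.1, 54.6 and 63.7 at stage 4. AT3G26110 read 905, 886 and 910.3 at stage 3 and 89.8, 81 and 85.1 at stage 4. Their means were 60.1 and 85.3 at stage 4, 79.2 and 97.9 at stage 5, and 2.37 and 21.2 in seeds stage 6. DRT100 differed, with 70.0 ± 7.11 at stage 5 and 100.1 ± 2.96 in seeds stage 6.

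Genes of wall loosening and wall modification fell more often than they rose. Over expansins, xyloglucan endotransglucosylases, pectin enzymes, glycosyl hydrolase 9 cellulases and trichome birefringence-like proteins (which acetylate wall polymers), 70 genes were tested of 88 with a probe set: 32 fell, 7 rose and the median was -0.75, against -0.02 over all probe sets. EXPA8, an expansin, read 609, 586 and 612 at stage 3 and 20.2, 23.7 and 18.7 at stage 4, a change of -4.46 ± 0.33 (SE, adjusted p = 1.97e-11). Of 15 expansin genes 6 fell and 1 rose (median -0.54), the latter being EXLA1, from 403, 466 and 475 to 1527, 1373 and 1392. The 6 included EXPA21 (-2.54 ± 0.21), EXLA2 (-1.97 ± 0.21) and EXPB5 (-1.95 ± 0.16). EXPA21 passed the filter on low signals through its stage 3 arrays alone and could hardly come out other than lower.

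XTH16 read 215, 229 and 213 at stage 3 and 18.3, 22.9 and 20.0 at stage 4, a change of -3.05 ± 0.20 (SE, adjusted p = 2.61e-12), and returned to 122 ± 6.36 at stage 5. Of 7 xyloglucan endotransglucosylase genes 4 fell and none rose (median -1.04), the others being XTH32 (-1.71 ± 0.15), XTH33 (-1.21 ± 0.32) and XTH19 (-1.04 ± 0.31). With an offset of 28 the count was 2. XTH19 also lost its call without stage 3 replicate C (-0.93) and without stage 4 replicate E (-0.91).

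Of 19 pectin enzyme genes 9 fell and 3 rose (median -0.52). AT1G60590, a polygalacturonase gene, read 198, 192 and 184 at stage 3 and 9.79, 10.8 and 8.24 at stage 4, a change of -3.58 ± 0.19 (SE, adjusted p = 3.74e-14). AT1G67750, the pectate lyase named above, read 906, 932 and 942 at stage 3 and 96.1, 84.9 and 83.5 at stage 4. AT1G04680, another pectate lyase gene, was bright in both stages, with 1151, 1092 and 1155 at stage 3 and 158, 164 and 170.2 at stage 4. The stage 3 arrays of each stood well above all stage 4 arrays. The 3 that rose were ATPMEPCRD and ADPG1, described with the seed coat and the dehiscence zone, and PMEPCRF (1.24 ± 0.18). The list was drawn up by locus and symbol and is not complete: the pectin methylesterase genes AT1G23200, which rose, and AT3G10720, which fell, are outside it, as are the pollen polygalacturonase genes, and the counts of pectin and wall genes leave them out.

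Of 11 cellulase genes 5 fell and 2 rose (median -0.77). GH9B11 and GH9B13 fell, with changes of -2.91 ± 0.26 and -2.75 ± 0.36, while GH9C1 read 10.0, 8.11 and 7.25 at stage 3 and 277, 362 and 339.7 at stage 4, a change of 4.43 ± 0.22 (SE, adjusted p = 9.47e-15). The other riser was GH9B5, whose change of 1.31 ± 0.32 was not called with an offset of 1. Of 18 trichome birefringence-like genes 8 fell and 1 rose (median -0.81), TBL36 with a change of -2.92 ± 0.22 and TBL39 with -2.40 ± 0.37, against TBL38, which read 200.3, 197 and 199.8 at stage 3 and 1202, 1357 and 1378 at stage 4 and changed by 2.68 ± 0.07.

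**Figure D3:**
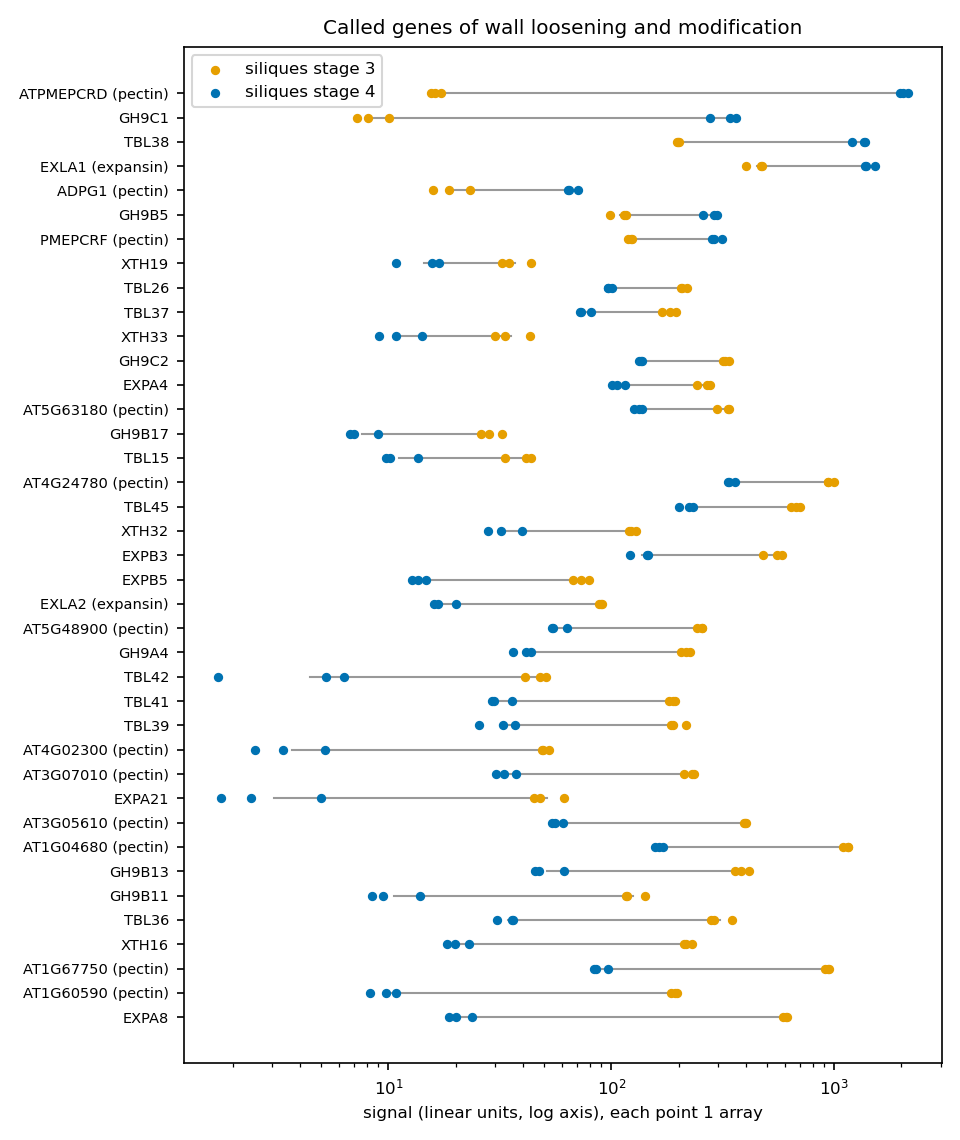
Signals on the 3 arrays of each stage (log axis, 1 point per array, grey lines joining the group means) for the 39 called genes of the 5 wall families. The 7 genes at the top rose and the 32 below fell. In no gene do the points of the stages overlap, as in all but 3 of all called probe sets.

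None of the tested cell division and tubulin genes was called, against 18.8% of all probe sets. Few could be tested: 5 of 43 genes in the cell division list and 7 of 15 in the tubulin list. Counts at an unadjusted p below are to be read against 55.2% of all probe sets passing even the adjusted p. The 5 cell division genes had no call (median 0.24), with PRL, a replication licensing factor, at 0.51 ± 0.14 and AUR1, an Aurora kinase of mitosis, at 0.28 ± 0.18. At an unadjusted p under 0.05 only PRL differed. None of the 7 tubulin genes was called by limma at both thresholds, with changes between -0.83 (TUA1) and 0.81 (TUB6) on the log2 scale, the latter from 321, 359 and 340.5 to 616, 573 and 612. At an unadjusted p under 0.05 there were 3 lower and 1 higher. Of 8 histone genes only MGH3 was called. Photosystem and antenna genes, which mark green tissue, had a median of -0.27 with none of 7 called and 5 lower at an unadjusted p under 0.05. That list names 36 genes, and only these 7 were tested. LHCB4.2, an antenna protein, read 2513, 2553 and 2680.1 at stage 3 and 1592, 1614 and 1659 at stage 4 (a change of -0.67 ± 0.07, adjusted p = 2.49e-08), a difference that passed the p threshold but not the fold threshold. The 7 reference genes, known for stable levels on such arrays and therefore no independent check, had a median of 0.01 and no call in limma, with 1 lower at an unadjusted p under 0.05.

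Among hormone-related genes, of 11 auxin genes 2 rose and 2 fell, against 9.39% and 9.45% of all probe sets. GH3.9, which encodes an enzyme of the auxin-conjugating family, read 27.9, 23.2 and 26.2 at stage 3 and 242, 228 and 230.5 at stage 4, a change of 2.88 ± 0.09 (SE, adjusted p = 1.10e-18), and YUC4, an auxin synthesis enzyme, reached only 19.2 and was under 2-fold with an offset of 28 (0.55). IAA18 (-1.08 ± 0.15) and GH3.3 (-1.01 ± 0.10) fell to a lesser degree. Both were under 2-fold with an offset of 28 (-0.85 and -0.91), and GH3.3 was also without stage 3 replicate B or stage 4 replicate F, at -0.98 each. Of 5 GASA genes 3 fell and 1 rose, AT2G30810 from 790.3, 946 and 785 to 59.5, 35.8 and 40.9 and AT2G14900 from 1211, 1181 and 1292 to 485, 539.9 and 514, against AT5G59845 above. Among 12 tested MADS-box factors 1 rose and 1 fell, near the 9.39% and 9.45% over all probe sets. AGL87 rose, from 52, 55.1 and 61 to 293, 343 and 328 (2.38 ± 0.19), and AGL16 fell (-1.09 ± 0.16), the latter under 2-fold with an offset of 28 (-0.86).

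Large families of secreted enzymes had members moving both ways, as did all probe sets (9.39% higher and 9.45% lower). The 3 of 26 subtilases that rose are near that share. Of 26 subtilases 7 fell and 3 rose (median -0.08), among them AT5G58820 (-3.50 ± 0.25) and AT5G58840 (-3.25 ± 0.21), close relatives whose probes may share transcripts, and SBTI1.1, which rose from 62.7, 76.1 and 71.8 to 639, 624 and 622. AT5G58820 and AT5G58840 passed the filter on low signals through their stage 3 arrays alone and could hardly come out other than lower. Of 22 serine carboxypeptidases 8 fell and 1 rose (median -0.59). SCPL43 read 468, 465 and 482 at stage 3 and 37.1, 36.1 and 34.2 at stage 4, and the 1 that rose, scpl48, read 195, 199 and 196 at stage 3 and 926, 908 and 907 at stage 4, a change of 2.18 ± 0.06 (SE, adjusted p = 2.11e-20). With an offset of 28, 5 fell. Of 29 peroxidases 5 rose and 5 fell, 9 of them falling with an offset of 1. AT5G15180 read 6.8, 0.403 and 4.36 at stage 3 and 468, 456 and 445 at stage 4, with a change of 5.46 ± 0.16, and AT5G47000 606, 601 and 549 at stage 3 and 78.6, 69.8 and 70.3 at stage 4, with a change of -2.89 ± 0.20. Of 14 beta-glucosidases 3 rose and 3 fell, BGLU29 with the largest rise (3.95 ± 0.11) and BGLU28 with the largest fall (-3.36 ± 0.14). BGLU45, which acts on lignin precursors, read 71.6, 77.4 and 75.6 at stage 3 and 317, 333 and 341 at stage 4, and fell from 357 ± 28.1 in siliques stage 5 to 45.3 ± 4.41 in seeds stage 6.

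**Figure D4:**
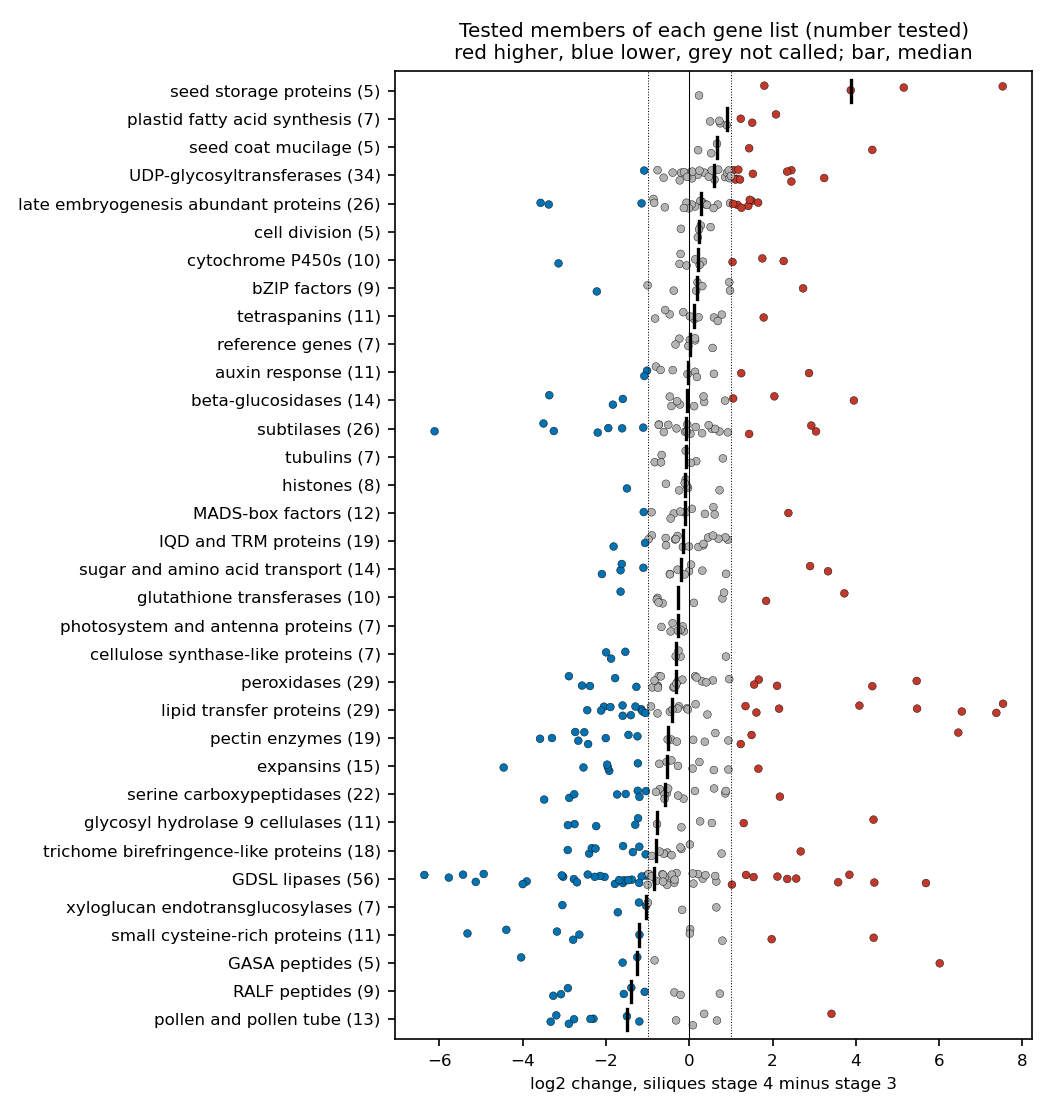
Change of each tested member (points) of the lists with at least 5 tested members, stage 4 minus stage 3 on the log2 scale, with the median as a black bar and dotted lines at the 2-fold threshold. By their medians, storage protein genes lie furthest to the right and pollen, RALF, GASA and small cysteine-rich peptide genes furthest to the left, while GDSL lipases and lipid transfer proteins spread both ways.

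The later groups differ in both time and material, since whole siliques end at stage 5 and isolated seeds begin at stage 6. For a difference between siliques and seeds, the stage and the missing fruit wall cannot be told apart. The comparison of seeds stage 6 with siliques stage 5 shares no arrays with stages 3 and 4. It does share their replicate letters in the opposite order (D, E and F in siliques stage 5, A, B and C in seeds stage 6), so a batch tied to the letters would enter it with the sign turned, and this cannot be told apart from the stage. Its background was 4.07% of probe sets higher and 7.55% lower in seeds. Of the 1594 probe sets higher at stage 4, 133 (8.34%) were higher in seeds and 319 (20.0%) lower. Of the 1603 lower at stage 4, 112 (6.99%) were higher in seeds and 267 (16.7%) lower. By the adjusted p alone the order of the second set turned, with 1294 higher in seeds and 1072 lower, while the first had 1264 higher and 1411 lower. Among storage protein genes 4 of 5 were higher in seeds stage 6 than in siliques stage 5. The same held for 2 of 4 oil body genes, while 4 of 13 pollen genes were lower. AT2G18540 of these storage genes and AT2G25890 of these oil body genes passed the filter on low signals only through arrays of later groups. A filter passed in this way favours genes that are bright there, so these counts are a description and no test. Examples among the risers are AT2G28490, higher in seeds by 1.13 ± 0.12, and IRX15, with a difference of -3.42 ± 0.23. EEL was higher in seeds by 1.41 ± 0.13, and BCAT4 had a difference of -2.38 ± 0.12.

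Of the 1594 higher probe sets 585 (36.7%) had their highest group mean at stage 4 itself, 200 (12.5%) at stage 5 and 809 (50.8%) in one of the seed groups. Of the 1603 lower ones 1353 (84.4%) were highest at stage 3 and 248 (15.5%) in seeds. Over all probe sets tested, 25.9% were highest at stage 3, 12.7% at stage 4 and 56.3% in seeds. A probe set that fell cannot be highest at stage 4, and 1 that rose cannot be highest at stage 3. These shares therefore describe the sets and are no test. For a highest mean in seeds, the stage and the change from whole siliques to isolated seeds cannot be told apart. GUT2 and JMT are examples of genes highest at stage 4, at 321 ± 13.5 and 758 ± 12.2, against 144 ± 1.92 and 549 ± 28.9 at stage 5. BGLU28 and CSLC12, a protein of xyloglucan synthesis, fell at stage 4 and were higher again in seeds: CSLC12 had means of 114 ± 4.18 at stage 3, 26 ± 0.121 at stage 4 and 90.2 ± 2.32 in seeds stage 8.

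**Figure D5:**
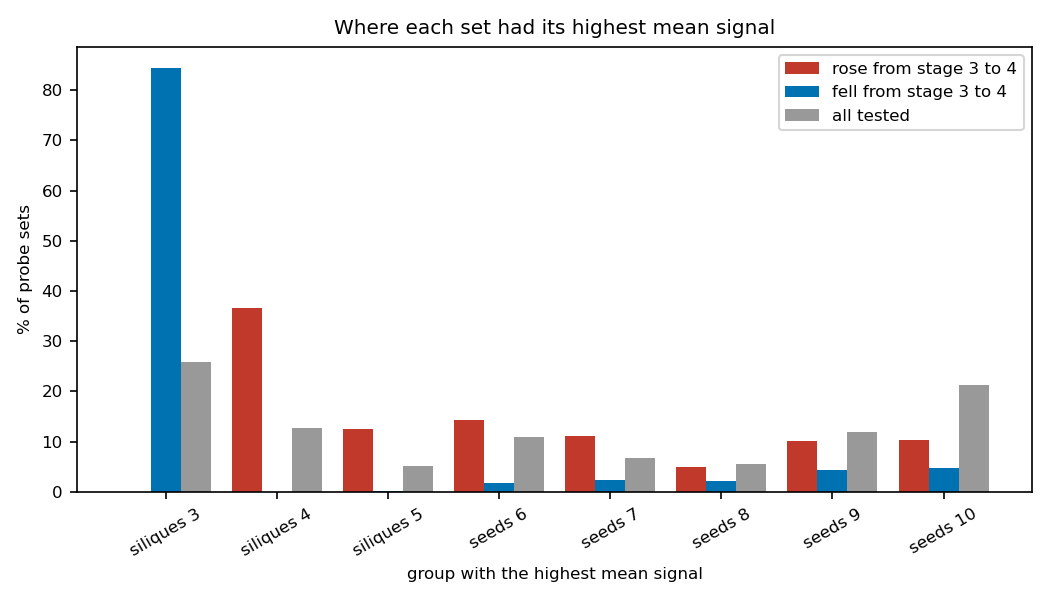
Share of probe sets (y axis, %) whose highest mean signal lay in each of the 8 groups (x axis), for those that rose or fell from stage 3 to stage 4 and for all tested. Of those that fell 84.4% were highest at stage 3, while those that rose are spread over stage 4 (36.7%), stage 5 (12.5%) and the seed stages (50.8% together).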

How the data were processed

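The deposited values are linear signal intensities. Per the submitters' processing notes the authors used MAS5, with no version stated. The mean between the 2nd and 98th percentiles was 100.0 on all 24 arrays, so each signal is relative to the rest of its array. Precision is limited by having 3 arrays per group, and detection calls are not part of the values used. Of 22810 probe sets, 13513 have 1 gene in the annotation, 503 several and 8794 none, and 13436 matched a locus of the reference gene table. The 64 control probe sets were left out. Tested were the 16967 probe sets above the 40th percentile of their array on at least 3 of the 24 arrays, of which 9392 have 1 gene and 7575 could not be named. A probe set bright only at stage 3 could pass through those arrays alone and then hardly come out other than lower.

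The main test was limma 3.58.1 (R 4.3.3, with data.table at version 1.17.8) on log2(signal + 7), with 1 mean for each of the 8 groups, 16 residual degrees of freedom, eBayes with a variance trend and Benjamini-Hochberg adjustment over all probe sets tested. Adding 7 shrinks the changes of dim genes. Tables were made with pandas 2.3.3 and figures with matplotlib 3.10.9. On simulated data for this comparison, over 16967 probe sets, 100% of 100 changes of 4-fold were called. Among 100 changes of 1.5-fold, 37% passed the adjusted p and 0% were called, which the 2-fold threshold sets in advance. Among unchanged probe sets 8 passed the adjusted p. The simulated noise was independent and normal around 1 mean per probe set, so genes at background in 1 stage were not mimicked.

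Named genes are the 15 highest and 15 lowest called changes with 1 gene and non-overlapping groups, the 8 highest and 8 lowest of those with a mean of at least 50 in both stages, up to 4 per gene list by size of change, and the pollen markers AT5G45880, ANX2, AT4G39110 and AT2G21480. Others (EXLA1, LCR69, THI2.1, AT3G02480, AT1G62500, GH9B5, PMEPCRF, SWEET2, SWEET8, UGT84A1, RALFL34, RALFL24, the SETH genes and AT2G18540) were chosen after their values were seen. A gene with no symbol is named by its locus. The comparison and the 46 lists were chosen with earlier results of these data known. List members were assigned by locus or symbol, in place of the planned search of gene descriptions, which the reference table lacks. The brightest probe set stood for a gene. Of the lists, 5 had no probe set. Alternatives were other offsets, normalizations, filters, arrays in the fit, variance models and thresholds, and leaving out each array.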

Additional observations from a re-analysis of the deposited data

How the results depend on the processing

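No paired analysis was possible because the replicate letters of stage 3 (A, B and C) and stage 4 (D, E and F) share none. Against 1594 higher and 1603 lower probe sets, an offset of 28 gave 1075 and 1033, and the adjusted p alone 4753 and 4621. The other settings stayed within 1487 and 1821 higher and 1539 and 1834 lower. Fitting only the 6 arrays gave the same counts because every 2-fold change passed the adjusted p in both fits, so this says nothing about stability. The adjusted p alone was passed by 10479 there, against 9374. Leaving out each array gave 1585 to 1611 higher and 1598 to 1627 lower. Only BAN changed sign, from -0.00 to 0.15 with quantile normalization and, with arrays left out, over a range of -0.0223 to 0.0115 (0.0052, 0.0115 and 0.0065 without stage 3 replicate A, stage 3 replicate C and stage 4 replicate E), and it was not called in any of these. Of 3174 values of named genes under 16 alternatives, 3082 kept direction and call, 39 lost and 49 gained a call. With an offset of 28, 23 lost it, since a larger offset shrinks dim genes. Leaving out 1 array cost 11 calls, all of changes near 2-fold (GH3.3, CYP78A9, UGT84A1, XTH19, AT2G21480 and TRM26). Of 1312 list counts 86 moved by over 1.5 times, 44 of them with the adjusted p alone. The overlaps with seeds stage 6 against siliques stage 5 (133, 319, 112 and 267) were 69, 208, 48 and 116 with an offset of 28, and with an offset of 1 the 112 became 210. Signals near background limit the sizes given for dim genes.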

Other observations

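Several other gene families were measured, to be read against 9.39% higher and 9.45% lower over all probe sets. The counts of tetraspanins, bZIP factors and IQD and TRM proteins are near those shares. Cellulose synthase-like genes, for hemicellulose backbones, fell in 3 of 7 tested and rose in none (median -0.33): CSLA03 read 27.5, 26.8 and 32 at stage 3 and 0.637, 1.71 and 3.73 at stage 4, CSLC12 111, 113 and 119 at stage 3 and 25.8, 26.1 and 26 at stage 4 and CSLA01 182, 192 and 196 at stage 3 and 57.3, 61.8 and 63.9 at stage 4. The change of CSLA03 was under 2-fold with an offset of 28 (-0.92). CSLD2, of the same superfamily, had a change of 0.88 ± 0.11 and was not called. Among 10 tested glutathione transferases, which conjugate glutathione to small molecules, GSTU15 rose from 0.93, 4.4 and 2.73 to 142, 93.9 and 129 (a change of 3.73 ± 0.23, adjusted p = 3.95e-13) and was back at 47.9 ± 2.66 (SD, n = 3) in siliques stage 5. GSTU20 also rose and GSTF4 fell (-1.65 ± 0.28, and -0.88 with an offset of 28).

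Cytochrome P450s, oxygenases of many pathways, gave 3 rises and 1 fall among 10 tested. CYP71B26 read 92.5, 104 and 94.9 at stage 3 and 558, 474 and 457 at stage 4, a change of 2.27 ± 0.12, and CYP71B5 8.86, 11.4 and 10.1 at stage 3 and 54.1, 55.9 and 43.1 at stage 4, a change of 1.76 ± 0.16, while CYP71B22 read 88.4, 76.2 and 90.3 at stage 3 and 1.8, 1.49 and 8.13 at stage 4, a change of -3.14 ± 0.38. CYP78A9, known for its effect on fruit and seed size, changed by 1.04 ± 0.12 and reached 1466 ± 22.9 in seeds stage 10, against 88.2 ± 9.52 at stage 4. Its change at this step was under 2-fold with an offset of 28 (0.78) and without stage 3 replicate B (0.98), stage 3 replicate C (0.92) or stage 4 replicate D (0.97). Of 11 tetraspanins, membrane proteins that organise others, TET11 rose from 14.2, 18.7 and 20.2 to 84.1, 71.7 and 78.3 (1.79 ± 0.17). Of 9 bZIP factors EEL rose and BZIP61 fell, from 33.4, 36.6 and 29.4 to 0.605, 1.4 and 2.96 (-2.22 ± 0.19). Proteins of the IQD and TRM families, which act at microtubules, had 2 falls among 19 tested, TRM24 (-1.82 ± 0.28) and TRM26 (-1.06 ± 0.30), the latter -0.99 without stage 4 replicate E.

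The control probe set for 25S ribosomal RNA read 63.8 ± 54.9 (SD, n = 3) at stage 4, from 24.9 to 127 over the arrays, and 69.2 ± 17.6 at stage 3, from 53.7 to 88.3, so that the stages overlap.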
